A study of Canis lupus familiaris with 6 samples.

Results

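The proteasome genes of canine mammary tumor cells were described on 6 two-colour arrays as the levels of the subunits in 3 cell lines and as their ratio in cells grown with or without myeloid-derived suppressor cells (MDSC). The members were all genes whose symbol in the array files starts with PSMA to PSMG followed by a number. This gave 42 genes with 63 probes, of 12008 gene symbols on the array that the reference gene table holds or that match this rule, and of 43603 probes that are not controls. Where a gene had several probes, the one with the highest mean level was used, and 28 of the 42 genes had a single probe. One of the 42, PSMC3IP, is no subunit: it encodes HOP2, a recombination factor that binds a proteasome ATPase and shares its name. It matches the rule, so that the counts of members include it, and its values are described apart.

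The lines were P114, from an anaplastic mammary cancer, CMT-U27, from a simple carcinoma, and CMT-U309, from a spindle-cell tumor, all of the dog. Each was cultured alone (monoculture) or with MDSC held in a culture plate insert, for at least 72 h according to the labels and for a shorter time according to the methods. The MDSC had been sorted from the blood of healthy dogs. Monoculture and co-culture RNA of a line were hybridised together, on 1 array with co-culture in Cy5 (replicate 1) and on 1 array with the dyes swapped (replicate 2), so that each line gave 2 arrays and 4 channels, and the 2 arrays of a line repeat the same pair of cultures. Each line is a single cell line, with no replicate culture stated, and its arrays lay on a slide of their own, so that line and slide cannot be told apart.

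The proteasome is the protease that removes proteins tagged with ubiquitin. Its core particle is a stack of rings of alpha (PSMA) and beta (PSMB) subunits, of which PSMB5, PSMB6 and PSMB7 carry the active sites. A regulatory particle of ATPases (PSMC) and non-ATPase subunits (PSMD) recognises and unfolds the substrate. In cells exposed to interferon gamma, the inducible subunits PSMB8, PSMB9 and PSMB10 take the places of PSMB5, PSMB6 and PSMB7, which makes the immunoproteasome, and the activator PA28 (PSME1 and PSME2) is made in larger amounts. The peptides so produced are carried by the TAP1 and TAP2 transporter to MHC class I molecules.

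The differences described here rest on a single probe for PSMB8 and PSMB10 and on overlapping probes for PSMB9, and the probes of 4 catalytic subunits are shown for that reason, with the coordinates that the array files give in the canFam2 build. The probe of PSMB5 lies on chr8:6351805-6351864 and that of PSMB8 on chr12:5423078-5423137, both on the minus strand. The probe of PSMB9 lies on chr12:5441275-5441334 and that of PSMB10 within chr5:84571037-84571217, both on the plus strand, and the second interval is longer than the probe. No gene model of this build was used here, so that exons and untranslated regions are not given. In PSMB9 the capitals mark the 48 bases that the brightest probe shares with the other PSMB9 probe of the array, so that these are not independent measurements.
PSMB5: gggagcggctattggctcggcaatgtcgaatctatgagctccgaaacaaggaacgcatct
PSMB8: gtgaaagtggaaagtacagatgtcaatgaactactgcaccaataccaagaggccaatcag
PSMB9: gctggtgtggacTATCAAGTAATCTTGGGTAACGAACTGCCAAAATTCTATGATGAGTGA
PSMB10: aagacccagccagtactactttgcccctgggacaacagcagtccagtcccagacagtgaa

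Levels are log2 processed signals after the channels were scaled to a common median. Between 53.0% and 81.0% of the spots of a channel were well above background in the scanner's own call. Of the 42 members, 39 were well above background in all 12 channels and none was saturated. PSMA8, the alpha subunit of germ cells, was well above background in 4 channels. PSMB11, the beta subunit of the thymus, was in none, and it was the only member that was not tested. PSMB8 was in 6 channels, all 4 of CMT-U309 and 1 each of P114 and CMT-U27. Of 5 epithelial markers tested, 3 were called higher and 1 lower in CMT-U27 than in P114, with EPCAM at a mean level of 15.42 in CMT-U27, 9.18 in P114 and 6.68 in CMT-U309 and the basal keratin KRT14, the one called lower, at 11.05, 11.86 and 12.58. All 6 mesenchymal markers tested were called lower in CMT-U27 than in either other line, with vimentin (VIM) at 10.19, 16.86 and 16.23 in the same order.

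Proteasome genes were mostly highest in CMT-U27. The mean level of 30 of the 41 tested members, or 73.2%, was highest in this line, against 39.6% of the 11547 genes tested and 47.3% of the 7029 genes that were well above background in all channels. P114 was highest for 6 members and CMT-U309 for 5, and CMT-U309 was lowest for 24. Limma with Benjamini-Hochberg adjustment over all probes called 25 members higher and 4 lower in CMT-U27 than in P114, where 27.1% of all genes were called higher and 20.6% lower. It called 4 members higher and 28 lower in CMT-U309 than in CMT-U27, beside 21.8% and 31.4% of all genes. The comparisons share lines, so that the second is no independent repeat of the first.

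**Figure D1:**
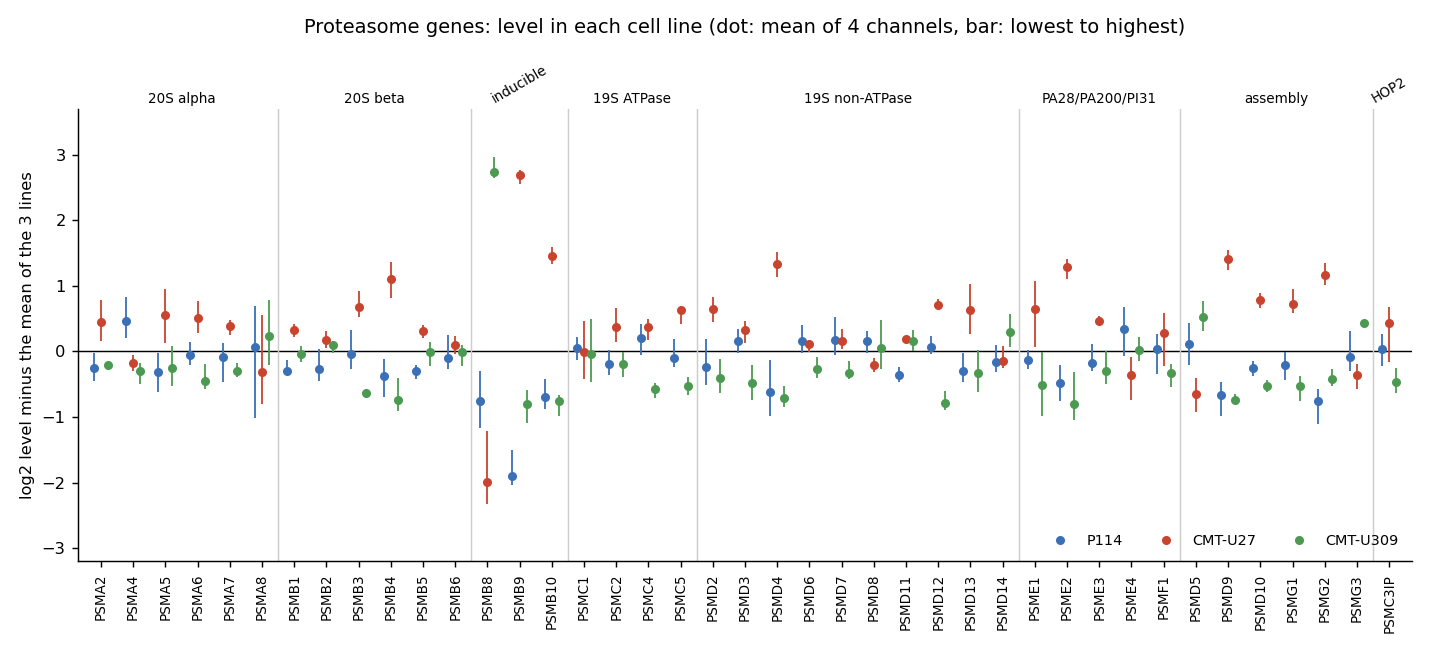
Level of the 41 tested proteasome genes in each cell line, as log2 level minus the mean of the 3 lines (vertical axis), grouped by role. Dots are means of 4 channels and bars run from the lowest to the highest channel; CMT-U27 was highest for 30 members, and PSMB8, PSMB9 and PSMB10 lie farthest from 0.

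The size of the shift was modest for most members. The median log2 difference between CMT-U27 and P114 was 0.60 over the 39 members well above background in all channels and 0.10 over the 7029 genes of that kind. Between CMT-U309 and CMT-U27 the medians were -0.80 and -0.24. Between CMT-U309 and P114 they were -0.13 and -0.11, with 5 members called higher and 9 lower beside 14.4% and 18.8% of all genes. With other scalings this last split was 10 higher and 4 lower (quantile), 7 and 6 (75th percentile) and 9 and 4 (normexp, loess and Aquantile), and the shares of all genes moved the same way, to 16.5% and 14.7%, 16.4% and 16.3%, and 16.4% and 14.5%, so that no direction is read from it for the members. With the same settings the median of the members stood 0.47 to 0.50 above that of all genes well above background for CMT-U27 over P114 in each case. For CMT-U309 over CMT-U27 the split of 4 and 28 became 6 and 20 with quantile normalisation (24.0% and 25.4% of all genes), 6 and 20 with Aquantile (23.9% and 24.8%) and 6 and 23 with the 75th percentile (28.7% and 24.996%).

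**Figure D2:**
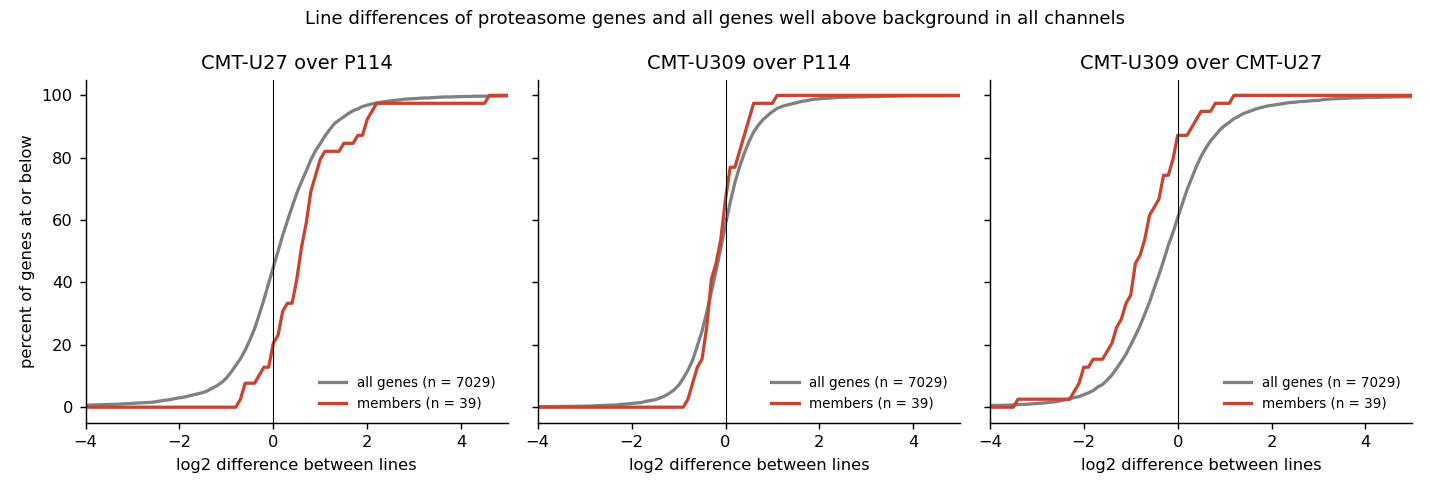
Cumulative share of genes (vertical axis, percent) at or below a log2 difference between lines (horizontal axis), for 39 proteasome genes and 7029 genes well above background in all channels. The member curve lies to the right of all genes for CMT-U27 over P114 (medians 0.60 and 0.10), to the left for CMT-U309 over CMT-U27 (-0.80 and -0.24), and close to them for CMT-U309 over P114.

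The inducible beta subunits differed most, and not in the same direction. PSMB9, the inducible partner of PSMB6, had levels of 10.13, 10.13, 10.15 and 10.67 in the channels of P114, of 11.08, 11.40, 11.41 and 11.58 in CMT-U309, and of 14.73, 14.89, 14.90 and 14.94 in CMT-U27. The lines did not overlap in any channel. The level in CMT-U27 was 24.2-fold that in P114 (log2 difference 4.59, SE 0.13, adjusted p = 4.1e-09 in limma) and 11.3-fold that in CMT-U309 (adjusted p = 2.2e-08 in limma), and CMT-U309 was 2.14-fold above P114 (adjusted p = 0.00019 in limma). PSMB10, the inducible partner of PSMB7, was at 11.70, 11.80, 11.88 and 12.16 in P114, at 11.60, 11.87, 11.91 and 11.92 in CMT-U309, and at 13.92, 13.92, 14.10 and 14.18 in CMT-U27. P114 and CMT-U309 overlapped and CMT-U27 lay above both. It was 4.42-fold higher in CMT-U27 than in P114 (adjusted p = 1.1e-06 in limma), whereas P114 and CMT-U309 differed by 0.06 on the log2 scale with an SE of 0.14.

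PSMB8, the inducible partner of PSMB5, was the exception. Its level was 7.74, 7.76, 7.78 and 8.06 in CMT-U309, against 3.92, 4.14, 4.47 and 4.80 in P114 and 2.77, 2.82, 2.97 and 3.87 in CMT-U27. All 4 channels of CMT-U309 lay above every channel of the other lines, including CMT-U27, where PSMB9 and PSMB10 were highest. Limma gave a log2 difference of 4.73 (SE 0.27) between CMT-U309 and CMT-U27 (adjusted p = 3.8e-07) and of 3.50 between CMT-U309 and P114 (adjusted p = 7.5e-06). Since only 1 of 4 channels of P114 and of CMT-U27 was well above background, the dim side was hardly measured, and the size moved with the background correction: with normexp, loess and Aquantile the log2 differences were 1.34 and 1.16. The called log2 difference of -1.23 between CMT-U27 and P114 (adjusted p = 0.0043 in limma) lies within these dim signals and was -0.18 with that setting. The gene had 1 probe, so that no other probe could be compared.

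PSMB8 and PSMB9 are neighbours in the dog genome. In the RefSeq gene table (assembly UU_Cfam_GSD_1.0), TAP2, PSMB8, TAP1 and PSMB9 follow each other on chromosome 12, between DLA-DOB and DLA-DMB of the MHC class II region. The transporter genes had the order of PSMB9: TAP1 had mean levels of 11.77 in P114, 12.90 in CMT-U309 and 14.35 in CMT-U27, and TAP2 of 10.87, 11.78 and 12.76. Both were above P114 in CMT-U27, TAP1 5.98-fold (adjusted p = 2.1e-07 in limma) and TAP2 3.72-fold (adjusted p = 2e-06 in limma). PSMB8 was well above background in all channels of CMT-U309 only, so that its order between P114 and CMT-U27 is not read.

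**Figure D3:**
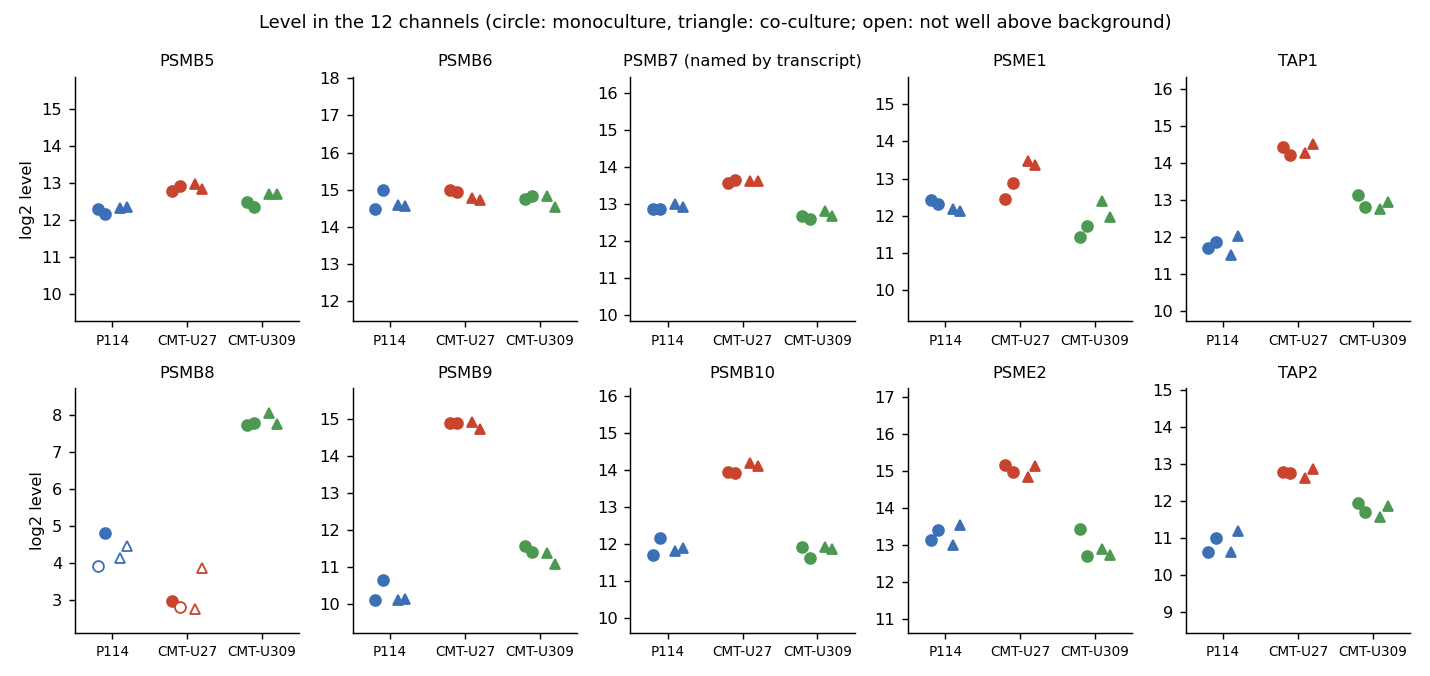
Level (vertical axis, log2 processed signal) of the catalytic beta subunits, the PA28 subunits and TAP1 and TAP2 in the 12 channels, by cell line. Circles are monoculture, triangles co-culture and open symbols channels not well above background; each panel has its own axis position, since levels of different probes are not comparable, and PSMB8 is high in CMT-U309 where PSMB9, PSMB10, PSME2, TAP1 and TAP2 are high in CMT-U27.

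The constitutive partners varied little by comparison. PSMB6 had mean levels of 14.65 for P114, 14.85 for CMT-U27 and 14.73 for CMT-U309, with channels from 14.47 to 15.00 that overlapped in all lines, and no pair of lines was called. PSMB5 had channels from 12.15 to 12.36 for P114, from 12.77 to 12.97 for CMT-U27 and from 12.35 to 12.72 for CMT-U309. It was 1.51-fold higher in CMT-U27 than in P114 (adjusted p = 0.0051 in limma), and the difference between CMT-U309 and CMT-U27 was -0.32 (adjusted p = 0.076 in limma) but 0.02 after quantile normalisation. PSMB7 has no probe under its symbol, but a transcript described in the files as beta type 7 was at 12.86 to 13.00 for P114, 13.56 to 13.64 for CMT-U27 and 12.59 to 12.81 for CMT-U309. Among the structural beta subunits, PSMB4 was 2.78-fold higher in CMT-U27 than in P114 (14.10 to 14.69 against 15.61 to 16.17, adjusted p = 1.7e-05 in limma), and its 3 probes gave the same order of lines. PSMB1, PSMB2 and PSMB3 were also called higher in CMT-U27 than in P114, by log2 differences of 0.63, 0.43 and 0.71.

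The activator genes that work with the immunoproteasome were high in CMT-U27 too. PSME2, the PA28 beta subunit, was at 13.00, 13.14, 13.40 and 13.54 for P114, 14.85, 14.98, 15.13 and 15.16 for CMT-U27, and 12.70, 12.74, 12.89 and 13.43 for CMT-U309, which is 3.39-fold between CMT-U27 and P114 (adjusted p = 4.4e-06 in limma). PSME1, the PA28 alpha subunit, was at 12.13 to 12.42, 12.45 to 13.47 and 11.41 to 12.39. The difference over both conditions was 1.71-fold (adjusted p = 0.014 in limma), and it was larger in co-culture. In monoculture PSME1 was at 12.42 and 12.32 for P114 and at 12.45 and 12.88 for CMT-U27. In co-culture the channels were 12.19 and 12.13 for P114 and 13.47 and 13.36 for CMT-U27. PSME3, the nuclear PA28 gamma, differed by 0.64 (adjusted p = 0.0095 in limma). PSME4, the activator PA200, was the only activator called lower in CMT-U27, by a log2 difference of -0.70 on its brightest probe (adjusted p = 0.0058 in limma), and none of its other 4 probes was called in this comparison. PSMF1, an inhibitor of the core particle, was not called between these lines.

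In the alpha ring, 4 of 6 tested genes were called higher in CMT-U27 than in P114 (PSMA2, PSMA5, PSMA6 and PSMA7, log2 differences of 0.46 to 0.86), and PSMA4 was called lower (-0.64). In the ATPase ring of the regulatory particle, PSMC2 and PSMC5 were called higher (0.57 and 0.72), and PSMC1 and PSMC4 were not called. PSMC1 was the subunit with the smallest range between lines, with means of 12.35 for P114, 12.28 for CMT-U27 and 12.25 for CMT-U309. These means join both conditions. In monoculture its channels were 12.28 and 12.43 for P114, 11.87 and 12.07 for CMT-U27 and 11.82 and 12.08 for CMT-U309. In co-culture they were 12.52 and 12.17, 12.76 and 12.42, and 12.79 and 12.33 for the lines in that order. Of 10 non-ATPase subunits, 5 were called higher, none was called lower, and PSMD4, a ubiquitin receptor of the particle, had the largest difference (3.89-fold, adjusted p = 1.4e-05 in limma). In the channels it lay between 12.53 and 13.39 for P114, between 14.65 and 15.04 for CMT-U27 and between 12.67 and 13.00 for CMT-U309.

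Of 6 chaperones that assemble the particles, 4 were called higher in CMT-U27 than in P114, 1 lower and 1 not. PSMD9, a chaperone of the ATPase ring, was at 9.68, 9.99, 10.15 and 10.20 for P114, 11.92, 12.01, 12.18 and 12.21 for CMT-U27, and 9.87, 9.90, 9.93 and 10.02 for CMT-U309, which is 4.21-fold between CMT-U27 and P114 (adjusted p = 1.3e-06 in limma). Its other probe had the same line highest with a smaller difference, with means of 10.46, 11.13 and 9.95. PSMG2, a chaperone of the alpha ring, was 3.82-fold higher in CMT-U27 than in P114 (adjusted p = 3.5e-06 in limma), and its partner PSMG1 1.92-fold (adjusted p = 0.00058 in limma). PSMD5, which binds the ATPase ring before it meets the core, went the other way: its means were 11.88 for P114, 11.11 for CMT-U27 and 12.29 for CMT-U309, and all 3 of its probes were lowest in CMT-U27. HOP2 (PSMC3IP) differed by 0.41 between CMT-U27 and P114 (adjusted p = 0.054 in limma) and was called lower in CMT-U309 than in either other line.

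Of 7 subunits that the array lists only under a transcript identifier, all but PSMG4 were well above background in all channels. With these 7 added (PSMA1, PSMA3, PSMB7, PSMC3, PSMC6, PSMD1 and PSMG4), 28 genes were called higher and 4 lower in CMT-U27 than in P114. PSMA3, PSMB7 and PSMC3 were the further calls, all higher in CMT-U27.

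The genes of interferon response and class I loading and the partners of the proteasome were compared as lists. Of 17 interferon and class I genes tested, 10 were called higher and 1 lower in CMT-U27 than in P114, with a median log2 difference of 0.77. Of all genes, 27.1% were called higher and 20.6% lower in that comparison. B2M, the light chain of class I molecules, was 7.09-fold higher in CMT-U27 (adjusted p = 2.3e-07 in limma), and the transcription factor IRF1, which binds the promoters of immunoproteasome genes, was 3.98-fold higher (adjusted p = 1.7e-05 in limma). STAT2 was the gene called lower: its means were 9.15 for P114, 6.98 for CMT-U27 and 10.98 for CMT-U309, and it was named after its values were seen. Of 18 proteasome partners tested, 7 were called higher and 2 lower, beside the same shares of all genes. Their median was 0.19, and that of all genes well above background in all channels was 0.10. NFE2L1, a transcription factor of proteasome genes, was not called between any lines (means 8.68 for P114, 8.50 for CMT-U27 and 8.59 for CMT-U309), and the brightest probe of NFE2L2 was not tested because a spot was flagged as an outlier. POMP, the maturation factor of the core particle, has no probe under its symbol.

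The arrays of a dye-swap did not always go together. Over all genes tested, their ratios had r = -0.35 for P114, 0.29 for CMT-U27 and -0.01 for CMT-U309. P114 replicate 1 had r = -0.46 and -0.47 with replicate 2 of CMT-U27 and of CMT-U309, whereas P114 replicate 2 had r = 0.41 and 0.46 with the same arrays. CMT-U309 replicate 1 had r = -0.20 and -0.02 with replicate 2 of P114 and of CMT-U27. Without P114 replicate 1, no member was higher and 2 were lower (PSMD2 and, on its brightest probe, PSME4) at an unadjusted p under 0.05, beside 9.91% and 7.36% of all genes. Without CMT-U309 replicate 1, no member was higher or lower, beside 5.52% and 3.01%. Leaving out an array leaves its line with a single dye orientation, so that the dye does not cancel in the ratio of that line.

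In co-culture with MDSC the proteasome genes had small ratios. The thresholds of the study's methods, a fold over 2 together with an unadjusted p under 0.05, were passed by no member in either direction, while 0.58% of all genes passed them with a higher level in co-culture and 0.173% with a lower one. Over the 41 members the ratio had a median of 0.00 on the log2 scale, as it had over all genes tested. All 41 members had a mean ratio within 0.5 on the log2 scale, against 89.9% of all genes and 98.1% of those well above background in all channels. With unadjusted p alone, PSMC1 was the only member higher and PSMD2 the only one lower, beside 5.73% and 3.68% of all genes. No gene passed an adjusted p under 0.05 in limma, and the lowest adjusted p of the members was 0.498. The methods' test put PSMB2 higher and PSMB6, PSMD2 and PSMD7 lower at an unadjusted p under 0.05, beside 3.13% and 2.63% of all genes.

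**Figure D4:**
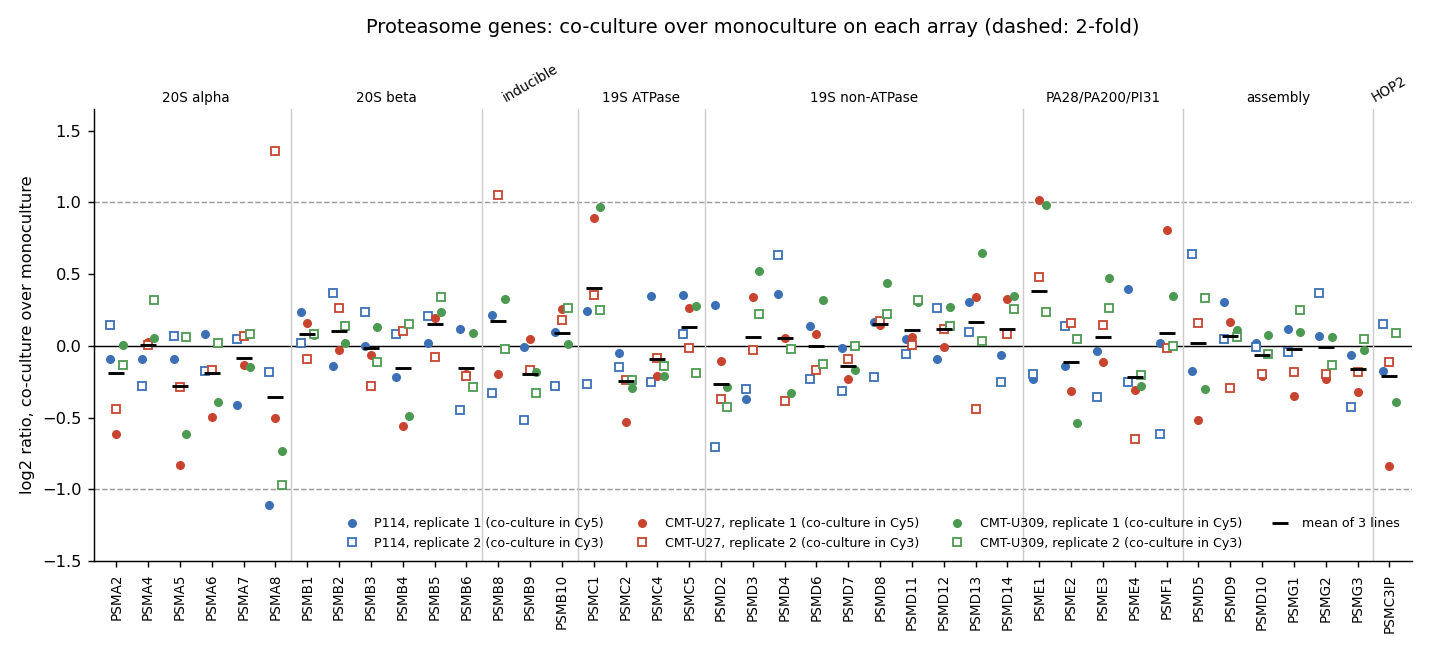
Log2 ratio of co-culture over monoculture (vertical axis) of the 41 tested proteasome genes on each of the 6 arrays, grouped by role. Filled circles have co-culture in Cy5, open squares in Cy3, black dashes are means of 3 lines, and dashed lines mark a 2-fold ratio; every mean lies within 0.5 of 0, and PSMC1 and PSME1 are the highest.

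The inducible subunits had ratios of either sign. PSMB8 had log2 ratios of 0.22 and -0.33 for P114, -0.20 and 1.05 for CMT-U27 and 0.33 and -0.02 for CMT-U309, with channels near background outside CMT-U309. PSMB9 had -0.01 and -0.51 for P114, 0.05 and -0.17 for CMT-U27 and -0.18 and -0.33 for CMT-U309, a mean of -0.19 (SE 0.11, adjusted p = 0.538 in limma). PSMB10 had 0.10 and -0.28 for P114, 0.26 and 0.18 for CMT-U27 and 0.01 and 0.27 for CMT-U309, a mean of 0.09. PSME2 had -0.14 and 0.14, -0.31 and 0.16, and -0.54 and 0.04, with the lower value on the array with co-culture in Cy5 in each line. The constitutive PSMB5 had 0.02 and 0.21 for P114, 0.20 and -0.08 for CMT-U27 and 0.24 and 0.34 for CMT-U309, a mean of 0.15 (SE 0.11). PSMB6 had 0.12 and -0.45, -0.20 and -0.21, and 0.09 and -0.29 for the lines in that order, a mean of -0.16 (SE 0.11). The probe described as PSMB7 had 0.14 and 0.05, 0.05 and -0.04, and 0.15 and 0.09, a mean of 0.07 (SE 0.11). Taken as the difference between an inducible subunit and its partner, the ratio was 0.02 ± 0.30 (SD, n = 3 lines) for PSMB8 minus PSMB5, -0.04 ± 0.16 for PSMB9 minus PSMB6 and 0.01 ± 0.20 for PSMB10 minus the probe described as PSMB7. An exact sign-flip test over 3 lines cannot go below p = 0.25, so that these differences are a description, and the first rests on PSMB8 channels near background in P114 and CMT-U27.

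PSMC1 and PSME1 had the highest ratios, and in both genes the mean ratio of P114 was the lowest of the lines. PSMC1, an ATPase of the regulatory particle, had log2 ratios of 0.24 and -0.27 for P114, 0.89 and 0.35 for CMT-U27 and 0.96 and 0.25 for CMT-U309. The mean of the lines was 0.41 (SE 0.14, adjusted p = 0.498 in limma), a 1.32-fold ratio, and 5 of 6 arrays were higher in co-culture. PSME1 had -0.23 and -0.19 for P114, 1.02 and 0.48 for CMT-U27 and 0.98 and 0.23 for CMT-U309, a mean of 0.38 (SE 0.17, adjusted p = 0.498 in limma). In both genes the ratio in CMT-U27 and CMT-U309 was larger on the array with co-culture in Cy5.

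Further probes of these genes had like values. The second PSMC1 probe overlaps the brightest by 54 bases and had line means of 0.04, 0.71 and 0.66 in P114, CMT-U27 and CMT-U309. The third, which lies apart from them, had -0.16, 0.34 and 0.47, and a mean of 0.21 (SE 0.15). The second PSME1 probe, which does not overlap the first, had -0.28, 0.67 and 0.59. In a fit of CMT-U27 and CMT-U309 alone, PSMC1 (0.61, adjusted p = 0.0017 in limma) and PSME1 (0.68, adjusted p = 0.0012 in limma) were called higher, and PSMA5 (-0.42), PSMC2 (-0.32) and PSME4 (-0.36) lower. That fit has 2 lines only, and it called 9.9% of all genes higher and 6.67% lower, so that 2 and 3 of 41 members are near the background. The direction of PSME4 depends on the probe. With the median over the probes of a gene and all 3 lines, PSME4 had an unadjusted p under 0.05 in limma as higher, as had 5.73% of all genes. A difference between lines in the response had no test, since the arrays of a line repeat the same cultures.

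**Figure D5:**
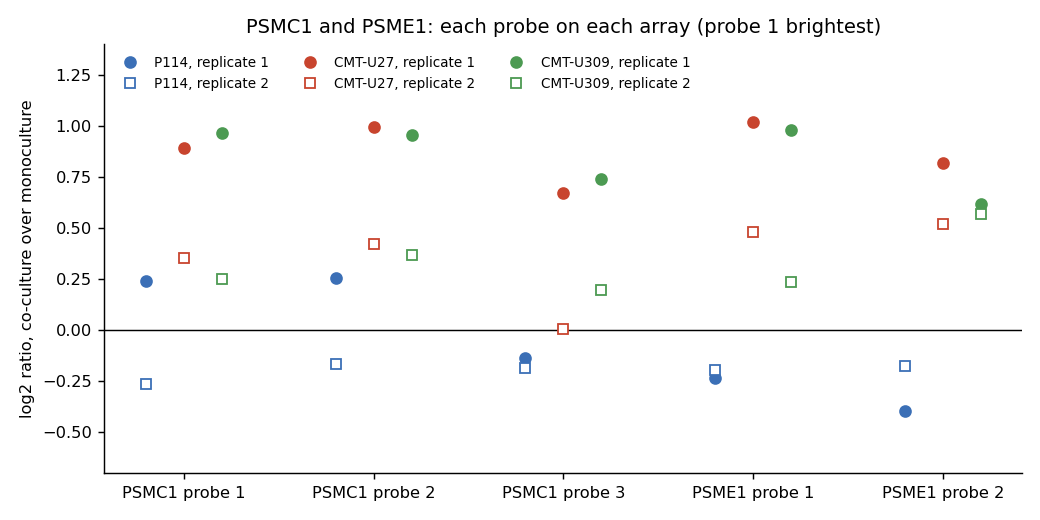
Log2 ratio of co-culture over monoculture (vertical axis) for each PSMC1 and PSME1 probe on each array, with probe 1 the brightest. The 4 arrays of CMT-U27 and CMT-U309 lie at or above 0 for all 5 probes, the P114 arrays lie below 0 for PSME1 (-0.23 and -0.19 on probe 1), and replicate 1, with co-culture in Cy5, is the higher array in CMT-U27 and CMT-U309.

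Among the 39 members well above background in all channels, the lowest ratios belonged to PSMA5, PSMD2 and PSMC2. PSMA8, mostly near background, had a lower mean of -0.35. PSMA5, of the alpha ring, had -0.09 and 0.07 for P114, -0.83 and -0.29 for CMT-U27 and -0.61 and 0.06 for CMT-U309, a mean of -0.28 (SE 0.13), and its other probe had a mean of -0.09. PSMD2, a scaffold subunit of the regulatory particle, had -0.70 on one P114 array and 0.29 on its dye-swap, and between -0.10 and -0.43 on the other arrays, a mean of -0.27 (SE 0.11, adjusted p = 0.498 in limma). PSMC2, an ATPase, was the member with all 6 arrays below 0 (-0.05 and -0.15, -0.53 and -0.24, -0.29 and -0.24), with a mean of -0.25 (SE 0.11, adjusted p = 0.498 in limma). PSMD13, the third highest of these 39 members, had 0.30 and 0.09, 0.34 and -0.44, and 0.64 and 0.04. Its mean was 0.16 (SE 0.12), and -0.048 with normexp and loess. PSMB8, near background outside CMT-U309, had a mean of 0.18.

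The arrays of a dye-swap also differed in the members. Across the 41 members, which are not independent replicates, the ratios of the arrays of a dye-swap correlated with r = -0.05 for P114, 0.13 for CMT-U27 and 0.45 for CMT-U309, while the replicate 1 arrays of CMT-U27 and CMT-U309, which share the orientation, had r = 0.81. Over all genes tested, these replicate 1 arrays had r = 0.45. The difference between the arrays of a dye-swap had a median size of 0.30, 0.27 and 0.23 for the members in P114, CMT-U27 and CMT-U309. For all genes tested, dim ones included, it was 0.44, 0.35 and 0.41. When the 6 arrays were fitted with the dye orientation as a block, 2 members had an unadjusted p under 0.05 as higher (PSMC1 and PSME1) and 4 as lower (PSMA5, PSMB9, PSMC2 and PSMD2), beside 8.87% and 6.88% of all genes, and no member passed an adjusted p under 0.05. This fit takes the arrays of a dye-swap as separate samples, which makes its p-values too small.

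MDSC were kept in an insert, and myeloid markers were used to see whether their RNA was measured with that of the tumor cells. Of 15 myeloid markers on the array, ITGAM, LYZ and SPI1 were well above background in no channel and PTPRC in 3 of 12. The summed signal of the list ran from 1600 to 19872 in co-culture and from 1657 to 12925 in monoculture. By line it was 1600 to 1939 for P114, 12687 to 19872 for CMT-U27 and 2278 to 2672 for CMT-U309. In CMT-U27, S100A8 was at 12.58 and 12.69 in monoculture. On both CMT-U27 arrays S100A8 and S100A9, genes of granulocytes, were higher in co-culture, with log2 ratios of 0.89 and 0.82 for the first and 0.84 and 0.76 for the second. The ratios of S100A8 were 0.14 and -0.54 for P114 and -0.05 and -0.73 for CMT-U309, and those of S100A9 were -0.03 and -1.35 and 0.03 and -1.85. Of the 15 markers, only CSF3R had an unadjusted p under 0.05 in limma, and it was lower in co-culture, where 3.68% of all genes were. The mean ratios of the list ran from -0.86 to 0.84, with a median of 0.17. The list's part in the ratios of PSMC1 and PSME1 was not tested.

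In co-culture, none of 18 proteasome partners had an unadjusted p under 0.05 in limma, and their median ratio was 0.02. Of 17 interferon and class I genes, TAPBP (0.62), IRF2 (0.68), CALR (0.45) and PDIA3 (0.36) had an unadjusted p under 0.05 as higher, and no gene as lower, where 5.73% and 3.68% of all genes did. TAP1 and TAP2, with mean ratios of -0.02 and -0.02, did not pass, nor did IRF1 (-0.11).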

How the data were processed

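Scanner output of 6 two-colour canine arrays was used (3 lines, each with a dye-swap). The deposited processed signal intensity of both channels had been background-subtracted, detrended and dye-normalised by the authors in Agilent Feature Extraction 10.10.1.1 per the file headers (10.7.3.1 in the submitters' processing notes). The deposited log10 ratios of the series served as an alternative. The number of arrays and the signal over background limit the precision.

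Channels were brought to the same median. Control spots, outlier spots and probes that never exceeded an intensity of 10 were dropped, which left 40699 probes. Log2 ratios were averaged over the dye-swap of a line, and limma (version 3.58.1 under R 4.3.3, eBayes with trend) compared the mean of 3 lines with 0. Lines were compared over 6 RNA samples (line plus condition, 2 residual degrees of freedom), with calls at an adjusted p under 0.05. Benjamini-Hochberg adjustment ran over all probes. As no separate cultures are stated, p-values measure only the spread between these samples, which may be technical.

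Replicate numbers mark the dye orientation. Differences between the arrays of a dye-swap correlated between lines with r = 0.36 to 0.58 over all probes, so that the numbers pair the arrays; the replicate block is given where it changed a count.

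Each gene was taken by its brightest probe. Values per array or channel are given for PSMB5 to PSMB10, PSME1 and PSME2, and, among members well above background in all channels, for the 3 highest and 3 lowest ratios and the 3 largest ranges between lines; other members with values were named after their values were seen. The members and gene lists were chosen with earlier results of these data known. Co-culture data were simulated for 40699 probes with the same spread for each. The 100 probes changed by 2 and the 100 changed by 4 on the log2 scale were all recovered, with 7 false calls among the others. These changes were larger than any mean ratio of the members, so that the recovery of ratios of that size was not tested. Alternatives covered background correction (normexp, offset 50), scaling, filters, tests, left-out lines and arrays, and the median over probes. Extending the members by 7 subunits was an alternative chosen after seeing the data. The values of 1 gene of the interferon list are not reported here.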

Additional observations from a re-analysis of the deposited data

Results flagged for a closer look

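Members whose co-culture ratio had opposite signs on both arrays of one line and both arrays of another are given here, and the difference between lines was not tested in any of them. For PSME1 the log2 ratio in CMT-U27 minus that in P114 was 0.96, and in CMT-U309 minus P114 it was 0.82. For PSMD3 the difference of CMT-U309 from P114 was 0.71 and for PSME3 it was 0.57. For PSMD14 CMT-U27 differed from P114 by 0.36 and CMT-U309 by 0.46, and for PSMA4 they were 0.21 and 0.38. PSMD4 ran the other way, with -0.67 for CMT-U309 minus P114, and so did PSMG2, with -0.43 for CMT-U27 minus P114. PSMG1 differed between the other lines, by 0.44 for CMT-U309 minus CMT-U27. In 7 of these 8 genes the difference involves P114. How many of all genes have such signs was not counted, so that neither the number nor the part of P114 is read as a result about the members.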

How the results depend on the processing

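No member passed the methods' thresholds under any setting tried. The member with an unadjusted p under 0.05 as higher became 0 members with normexp and loess, with the deposited log ratios and without the trend, beside 3.52% to 4.06% of all genes. It became 2 without the intensity filter, with the replicate block, with the 6 arrays without a dye term and with the median over probes, beside 5.73% to 8.87%. The 1 member as lower became 0 without the trend, beside 3.14% of all genes. It became 2 with normexp and loess, with the deposited ratios, without the filter, with 6 arrays without a dye term and with the median over probes, beside 2.92% to 4.12%. PSMD2 was not among these with normexp and loess (PSMA8 and PSMC3IP) or with 6 arrays without a dye term (PSMA5 and PSMC2). The count was 3 with the 75th percentile (5.0%) and with the t-test of the line ratios (2.63%), and 4 with the replicate block (6.88%). With lines and arrays left out these counts ran from 0 to 5 and from 0 to 7, the members past an adjusted p under 0.05 from 0 to 5 (5 without P114), and the median ratio from -0.046 to 0.023. The lines that moved these counts were P114 (5 higher and 7 lower of 41 members without it, beside 18.8% and 15.7% of all genes), CMT-U27 (0 and 0, beside 1.52% and 1.32%) and CMT-U309 (0 and 0, beside 1.67% and 1.34%). The arrays that did so were P114 replicate 1 (0 and 2, beside 9.91% and 7.36%), CMT-U27 replicate 2 (3 and 1, beside 4.99% and 2.9%), CMT-U309 replicate 1 (0 and 0, beside 5.52% and 3.01%) and CMT-U309 replicate 2 (2 and 1, beside 4.08% and 2.82%). With an array left out, the dye does not cancel in the ratio of its line. Between CMT-U27 and P114, 16 members were higher and 2 lower without the trend, and the median of 0.57 over 41 members was 0.47 with quantile, 0.43 with the 75th percentile and 0.42 with Aquantile normalisation (0.46 to 0.63 with arrays left out). Between CMT-U309 and P114, 10 members were higher and 4 lower with quantile, 9 and 4 with Aquantile and 2 and 2 without the trend. With arrays left out, 2 to 6 were higher (2 without P114 replicate 1) and 5 to 13 lower (5 without P114, CMT-U27 or CMT-U309 replicate 2). Between lines, the shares of all genes were not counted without the trend or with arrays left out, so that those counts are not read for the members. The median of CMT-U309 over CMT-U27 moved from -0.77 to -0.47, -0.56 and -0.38 with quantile, 75th percentile and Aquantile normalisation.

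Small uncalled differences changed sign. PSMD13 in co-culture was -0.048 with normexp and loess, and PSMB8 ran from -0.033 to 0.38 with lines and arrays left out. For CMT-U309 over P114, PSMB10 was 0.053 with quantile and 0.011 with the 75th percentile (-0.20 to 0.073 with arrays left out), PSMD9 was 0.045 with quantile and 0.069 with Aquantile (-0.25 to 0.097), and PSMB6 ran from -0.041 to 0.20. For CMT-U309 over CMT-U27, PSMB5 was 0.022 with quantile and 0.091 with Aquantile, and PSMB6 was 0.23 with quantile, 0.095 with the 75th percentile and 0.20 with Aquantile. The cause was not tested. Dim signals limit PSMB8, PSMA8 and PSMB11.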
